A study of Macaca fascicularis with 64 samples.

Results

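The striated muscle myosin heavy chains were examined as a family of 7 genes among the 28141 genes listed for cynomolgus monkeys (Macaca fascicularis) deficient in SIRT6, a chromatin-bound protein deacylase. They were MYH3 (LOC102146855), MYH8 (LOC102146102), MYH2 (LOC102144483), MYH1 (LOC102145107), MYH4 (LOC102145458), MYH6 and MYH7B. A gene was taken as a member for its identity as a striated muscle chain, not for its values. Of 8 chains sought, 5 were listed under the identifier or symbol sought and 2, MYH4 and MYH8, under a LOC identifier that RefSeq pairs with that symbol. MYH7, the slow and ventricular chain, was not listed under its symbol and was not analysed as a member.

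RNA was sequenced from whole tissue, and levels are given in FPKM, a read density scaled by transcript length and by the mapped fragments of the library, which sets genes of unequal length on 1 scale. The tested newborns were 2 SIRT6 mutant animals, KO2 and KO3, and they were set against 2 wild-type newborns, WT2 and WT3. Each newborn gave 2 libraries from each of 7 tissues, which were muscle, heart, brain, thymus, liver, lung and kidney. Wild-type fetuses at 2 and at 4 months of gestation gave 2 libraries per month from muscle and from brain. The kind of SIRT6 mutation, the muscle sampled and the part of the heart sampled were not given in the sources used here.

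Myosin heavy chains form the thick filament of striated muscle, and the head of each chain splits ATP to pull on actin. In mammals developing skeletal muscle uses an embryonic chain (MYH3) and a perinatal chain (MYH8) that are later replaced by the adult fast chains MYH2 (type 2A fibres), MYH1 (type 2X) and MYH4 (type 2B). MYH6 is the fast alpha chain of cardiac muscle, and MYH7B is an ancient chain whose intron holds the microRNA miR-499. In the RefSeq annotation of this species MYH13, MYH8, MYH4, MYH1, MYH2 and MYH3 lie side by side in that order, and MYH6 adjoins a protein-coding gene with no symbol, LOC102118628. Neither the deposited tables nor the RefSeq table used here says whether that gene is itself a striated muscle chain. Whether it is MYH7 was not settled. It is therefore not counted among the 7 chains, and its values are set beside theirs because the ranking and shares of the chains would change with it. These chains are close paralogs, so reads of one could have been counted to another, and values of single chains, above all the lowest ones, are uncertain to that extent.

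The 64 libraries held no counts, so the depth behind each value is unknown. The labelled tissues carried their markers. The summed FPKM of 10 skeletal muscle markers was 32831 to 79108 in newborn muscle, and 11 cardiomyocyte markers summed to 14690 to 20388 in newborn heart. SIRT6 itself was 4.99 FPKM in KO2 muscle and 8.81 FPKM in KO3 muscle, against 8.13 and 8.36 FPKM in WT2 and WT3 muscle. It passed the test between KO and WT in none of the 7 tissues (limma adjusted p 0.54 to 0.94), so the transcript level does not check the genotype labels. The libraries of an animal differed by at most 0.22 on the log2 scale for these chains in muscle and by at most 0.53 in heart, among chains at 1 FPKM or more. They were averaged, leaving 2 animals per genotype.

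To examine how the chains change before birth in wild-type muscle, month 4 was set against month 2. The embryonic chain dominated at month 2, and the adult fast chains had appeared by month 4. MYH3 stood at 993 and 696 FPKM at month 4, against 2438 and 2251 FPKM at month 2. MYH8 stood at 173 and 165 FPKM at month 4, against 330 and 311 FPKM at month 2. Both developmental chains were lower in each month 4 library than in either month 2 library, while remaining abundant. In whole tissue, fewer fibres of a type and less RNA per fibre cannot be told apart.

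The adult fast chains moved the other way. MYH2 was 557 and 852 FPKM at month 4, against 2.80 and 2.58 FPKM at month 2. MYH1 was 516 and 1082 FPKM at month 4, against 0.187 and 0.196 FPKM at month 2. MYH4 was 27.8 and 378 FPKM at month 4, against 0.232 and 0.268 FPKM at month 2, so the month 4 libraries differed widely from each other in this chain. The library with less MYH4 also held more RNA of smooth muscle, with 5 markers summing to 1373 FPKM there and to 307 FPKM in the other month 4 library. Its fibroblast markers summed to 14814 FPKM, against 8067 FPKM in the other, and its skeletal muscle markers to 35462 FPKM, against 63462 FPKM in the other, and their part in the MYH4 levels was not tested.

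On the log2(FPKM + 1) scale, which understates changes of low genes, these differences passed limma with Benjamini-Hochberg adjustment over all genes (adjusted p under 0.05) in 6 of the 7 chains. Of all genes tested, 37.9% passed the same test. Because quantile normalisation shifted the median of all genes by more than 0.1, changes are given relative to that median of 0.16. Here and wherever a change is relative to a median, its SE and adjusted p come from the test without that subtraction. As tested, MYH3 changed by -1.49, MYH8 by -0.92 and MYH7B by -1.01. MYH1 rose by 9.13 (SE 0.29, adjusted p = 9.4e-08), MYH2 by 7.38 (SE 0.22, adjusted p = 5.7e-08) and MYH4 by 6.22 (SE 0.85, adjusted p = 0.00049). MYH3 changed by -1.66 (SE 0.23, adjusted p = 0.0011), MYH8 by -1.09 (SE 0.17, adjusted p = 0.0028) and MYH7B by -1.17 (SE 0.27, adjusted p = 0.015). The 3 rises kept their calls in every alternative run, and the 3 falls did not. Quantile normalisation ended the calls of MYH3 (-0.69, adjusted p = 0.096) and MYH7B (adjusted p = 0.054), and leaving out the first month 2 library ended those of MYH8 (adjusted p = 0.064) and MYH7B (adjusted p = 0.055). The fetal libraries are not stated to come from separate fetuses, and these p-values reflect library spread alone, which may be technical.

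MYH7B was 31.1 and 60.02 FPKM at month 4, against 91.8 and 84.2 FPKM at month 2. MYH6 was low throughout, at 2.60 and 4.32 FPKM at month 4 and at 2.59 and 1.98 FPKM at month 2. It did not pass (relative change 0.26, tested as 0.42, SE 0.26, adjusted p = 0.22). The gene adjoining MYH6, LOC102118628, rose by 2.53 relative to the median (SE 0.18, adjusted p = 1.3e-05). It had 414 and 508 FPKM at month 4, against 70.5 and 69.4 FPKM at month 2. Markers of other cells differed between the months as well. Of 4 cardiac list genes tested 3 fell, and their 11-gene list summed to 582 and 404 FPKM at month 4, against 3746 and 2933 FPKM at month 2. That sum came mainly from ACTC1, TNNT2 and MYL4, which fetal skeletal muscle also uses, while the atrial peptide gene NPPA was at most 1.76 FPKM. Of 5 liver markers tested all 5 fell, and of 5 fat cell markers all 5 rose, and their part in the chain values was not tested.

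In newborn muscle the SIRT6 mutants held abundant developmental chains and little of the 2X and 2B chains. MYH3 and MYH8 rose in KO muscle, and MYH1 and MYH4 fell. MYH2, MYH6 and MYH7B did not pass. Thus 4 of 7 chains were called, where 2.32% of the 12087 genes tested were called. With no filter on low levels, none of the 4 passed (adjusted p 0.40 to 0.54). Where the genotypes are said below not to overlap, the share of all genes that did so in muscle was not counted. Nothing beyond the levels is read from it.

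MYH3, the embryonic chain, had 469 and 467 FPKM in KO2 and 307 and 306 FPKM in KO3, against 14.9 and 13.6 FPKM in WT2 and 4.11 and 4.22 FPKM in WT3. Every KO library lay far above every WT library. The change was 5.42 on the log2 scale (SE 0.50, 95% interval 4.40 to 6.44, adjusted p = 1.7e-07). It stayed between 4.64 and 6.20 whichever animal was left out.

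MYH8, the perinatal chain, had 189 and 207 FPKM in KO2 and 1109 and 1123 FPKM in KO3, against 91.9 and 92.4 FPKM in WT2 and 54.4 and 53.7 FPKM in WT3. The groups did not overlap, but KO3 was far above KO2. The change was 2.72 (SE 0.54, 95% interval 1.60 to 3.83, adjusted p = 0.0067). Without KO3 it was 1.47 and no longer passed (adjusted p = 0.11), and quantile normalisation also ended the call (adjusted p = 0.16).

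MYH1, the type 2X chain, had 34.6 and 35.6 FPKM in KO2 and 38.0 and 36.6 FPKM in KO3, against 1228 and 1220 FPKM in WT2 and 561 and 580 FPKM in WT3. The KO animals were close to each other, and both lay far below either WT animal. The change was -4.49 (SE 0.43, 95% interval -5.37 to -3.61, adjusted p = 3.1e-07), and it stayed between -5.04 and -3.94 whichever animal was left out.

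MYH4, the type 2B chain, had 1.82 and 2.06 FPKM in KO2 and 29.6 and 31.0 FPKM in KO3, against 37.0 and 39.1 FPKM in WT2 and 414 and 404 FPKM in WT3. The groups did not overlap, but KO3 was close to WT2, and the animals within each genotype differed more than 10-fold. The change was -3.72 (SE 0.82, adjusted p = 0.012). It was -2.01 without KO2 (adjusted p = 0.44), -5.43 without KO3, -5.42 without WT2 and -2.03 without WT3 (adjusted p = 0.34), and quantile normalisation ended the call (adjusted p = 0.26).

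MYH2, the type 2A chain, had 268 and 269 FPKM in KO2 and 404 and 415 FPKM in KO3, against 842 and 814 FPKM in WT2 and 623 and 612 FPKM in WT3. All KO libraries lay below all WT libraries, yet the change of -1.11 (SE 0.38, 95% interval -1.88 to -0.33) did not pass after adjustment (adjusted p = 0.14). MYH2 was the most abundant adult fast chain in both KO animals. MYH7B had 45.6 and 47.0 FPKM in KO2 and 16.4 and 17.1 FPKM in KO3, against 7.94 and 8.21 FPKM in WT2 and 19.05 and 18.4 FPKM in WT3, and the groups overlapped (1.12, SE 0.53, adjusted p = 0.35). MYH6 was 1.60 to 3.93 FPKM in KO muscle and 3.68 to 5.69 FPKM in WT muscle, also overlapping (-0.67, SE 0.49, adjusted p = 0.65).

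Genes beside the members in the genome were also lower. MYH13, the chain of extraocular and laryngeal muscle, was 0.610 to 2.80 FPKM in KO muscle and 9.85 to 27.7 FPKM in WT muscle (-2.85, SE 0.55, adjusted p = 0.0054). LOC102118628 had 367, 374, 136 and 130 FPKM in KO muscle, against 780, 759, 1096 and 1090 FPKM in WT muscle (-2.04, SE 0.43, adjusted p = 0.0085).

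**Figure D1:**
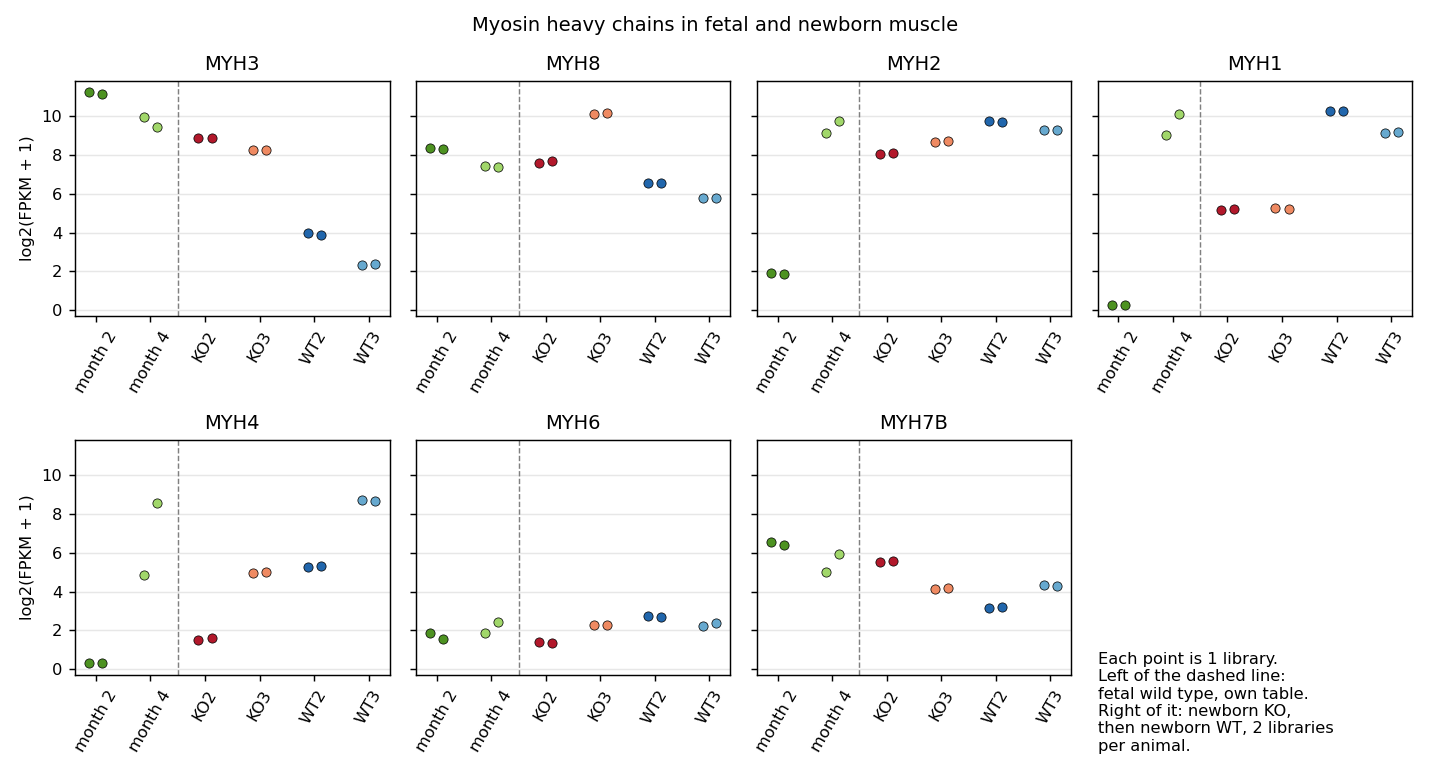
Levels of the 7 myosin heavy chains in fetal and newborn muscle, as log2(FPKM + 1) on the vertical axis, with 1 point per library. Fetal wild-type libraries stand left of the dashed line and newborn KO2, KO3, WT2 and WT3 right of it, from tables normalised separately, and MYH3 is seen high in KO and low in WT newborns while MYH1 is low in KO and high in WT newborns.

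The composition of the family gives the same data relative to the family total. Shares are percentages of the summed FPKM of the 7 chains and are descriptions with no test. The developmental chains MYH3 and MYH8 together made up 65.3% in KO2 muscle and 74.1% in KO3 muscle, against 4.81% in WT2 and 3.47% in WT3. The adult fast chains MYH2, MYH1 and MYH4 made up 29.96% in KO2 and 24.8% in KO3, against 94.6% in WT2 and 95.2% in WT3. The mutants were alike in these sums but not in the chain that led them. In KO2 the leading chain was MYH3 with 45.9%, followed by MYH2 with 26.3% and MYH8 with 19.4%. In KO3 it was MYH8 with 58.1%, followed by MYH2 with 21.3% and MYH3 with 16.0%. The wild-type animals also differed, mainly in the fast chains. WT2 held 55.4% MYH1, 37.5% MYH2 and 1.72% MYH4, and WT3 held 36.8% MYH2, 34.0% MYH1 and 24.4% MYH4.

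Set beside the fetal table, with no test across tables, the developmental share was 50.7% and 26.6% in the month 4 libraries and 96.6% in each month 2 library. The shares of KO2 and KO3 thus lay between those of month 2 and month 4 fetal muscle, and those of WT2 and WT3 lay below both. The chains did not all follow that order. The MYH8 share was 19.4% in KO2 and 58.1% in KO3, above the 7.50% and 5.09% at month 4 and the 11.5% and 11.7% at month 2. MYH1 was 3.45% in KO2 and 1.94% in KO3, below the 22.4% and 33.4% at month 4. The summed FPKM of the 7 chains was 1019 in KO2 and 1920 in KO3, against 2210 in WT2 and 1678 in WT3, so these totals overlapped. With LOC102118628 in the sum, the total averaged 1721 FPKM (SD 469) in KO muscle and 2875 FPKM (SD 148) in WT muscle. The overlap thus depended on leaving that gene out. Adding LOC102118628 to the sum put the developmental share at 47.9% in KO2 and 69.3% in KO3, against 3.57% in WT2 and 2.10% in WT3. The adult fast share was then 22.0% in KO2 and 23.2% in KO3, against 70.1% in WT2 and 57.6% in WT3.

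**Figure D2:**
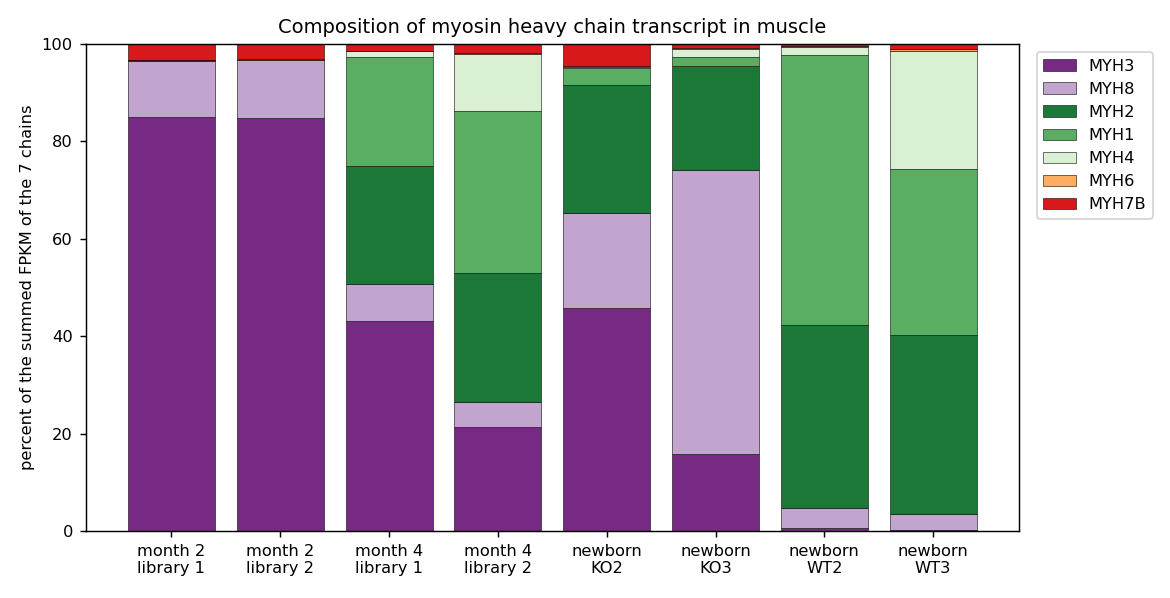
Share of each chain in the summed FPKM of the 7 chains, in percent on the vertical axis, for each fetal muscle library and each newborn animal (mean of 2 libraries). The purple segments are the developmental chains and the green ones the adult fast chains, and the purple segments fill 65.3% and 74.1% of the KO bars and under 5% of the WT bars.

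Markers of cell types also differed between these muscle samples. Skeletal muscle markers summed to 50888 FPKM in KO2 and 33714 in KO3, against 77893 in WT2 and 64642 in WT3, but of the 10 only 1 fell and 9 did not pass, with a median change of 0.15 that has the other sign. Smooth muscle markers summed to 117 and 176 FPKM in KO2 and KO3, against 452 and 308 in WT2 and WT3, and 2 of 5 fell. Of 6 macrophage markers tested 3 fell, with sums of 1.64 and 26.3 FPKM in KO2 and KO3, against 73.0 and 40.8 in WT2 and WT3. Red cell markers summed to 115 and 225 FPKM in KO2 and KO3, against 1087 and 1114 in WT2 and WT3, with 1 of 7 higher and 1 lower. Satellite cell markers, of muscle stem cells, summed to 74.6 and 74.7 FPKM in KO2 and KO3, against 38.3 and 46.8 in WT2 and WT3, and 1 of 5 rose. KO2 muscle stood apart in heat shock genes, where HSPB1 reached 15371 FPKM, with 920 FPKM in KO3 and with 1118 and 516 FPKM in WT2 and WT3. The part of the cell type differences in the chain values was not tested. The part of the heat shock difference was not tested either, and leaving KO2 out leaves KO3 as the only KO animal.

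In newborn heart MYH7B and MYH6 held the highest levels of the 7 chains, except in KO2, where MYH6 was below MYH1 and MYH8. LOC102118628, of unknown identity, was above both, and in a sum with the 7 chains it made up 72.4% in KO2 and 76.3% in KO3 heart, against 87.6% in WT2 and 65.3% in WT3 heart. The embryonic chain was near 0, with MYH3 at most 0.062 FPKM in any heart library. MYH2 was at most 0.502 FPKM and MYH4 at most 0.208 FPKM, so these 3 chains were below the level filter and were not tested there. None of the 4 chains tested between KO and WT heart was called by limma, and 2 of them (MYH6 and MYH1) had an unadjusted p under 0.05. Of all genes 0.18% were called in heart. The share of all genes whose genotypes did not overlap was not counted in heart either, so nothing is read from a lack of overlap there.

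MYH6, the alpha cardiac chain, spanned a wide range. It had 2.74 and 3.44 FPKM in KO2 and 32.1 and 34.4 FPKM in KO3, against 27.5 and 26.03 FPKM in WT2 and 407 and 424 FPKM in WT3. KO3 was above WT2, so the genotypes overlapped, and the animals of each genotype differed more than 10-fold. The change was -3.19 (SE 1.03, 95% interval -5.39 to -0.98) with an adjusted p of 0.30. It was -5.14 and passed without WT2, whose removal leaves WT3 as the only WT animal, assumed to vary like the others. Over all 12 alternatives the adjusted p ran up to 0.85. LOC102118628, beside MYH6, had 1006, 1013, 902 and 1009 FPKM in KO heart, against 1749, 1630, 1421 and 1458 FPKM in WT heart. These did not overlap, but the change of -0.67 (SE 0.31) did not pass (adjusted p = 0.54).

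Atrial genes were looked at because MYH6 is richer in atrium than in ventricle in many mammals. This list was added after the values were seen. NPPA was 609 FPKM in KO2 and 1128 in KO3, against 63.1 in WT2 and 103 in WT3, and MYL7, the atrial light chain, was 2416 in KO2 and 1008 in KO3, against 742 in WT2 and 689 in WT3. Of 8 such genes tested 1 rose and 7 did not pass. KCNA5, an atrial potassium channel, was 2.87 in KO2 and 3.55 in KO3, against 4.79 in WT2 and 7.93 in WT3. The listed genes did not share 1 order over the animals. The share of atrium in each sample was not given, and its part in the MYH6 levels was not tested.

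MYH7B was the most abundant of the 7 chains in 3 of the 4 hearts. It had 358 and 369 FPKM in KO2 and 242 and 264 FPKM in KO3, against 198 and 190 FPKM in WT2 and 341 and 347 FPKM in WT3. The genotypes overlapped (0.23, SE 0.37, 95% interval -0.56 to 1.03, adjusted p = 0.94). MYH1 was low in heart but did not overlap, with 9.20, 10.2, 4.69 and 4.65 FPKM in KO libraries and 3.35, 3.03, 1.80 and 2.59 FPKM in WT libraries. Its change was 1.09 (SE 0.49, 95% interval 0.05 to 2.14) and did not pass (adjusted p = 0.51). MYH8 had 8.43, 8.43, 4.52 and 4.64 FPKM in KO heart and 14.7, 13.9, 3.98 and 4.08 FPKM in WT heart (-0.28, SE 0.55, adjusted p = 0.96).

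**Figure D3:**
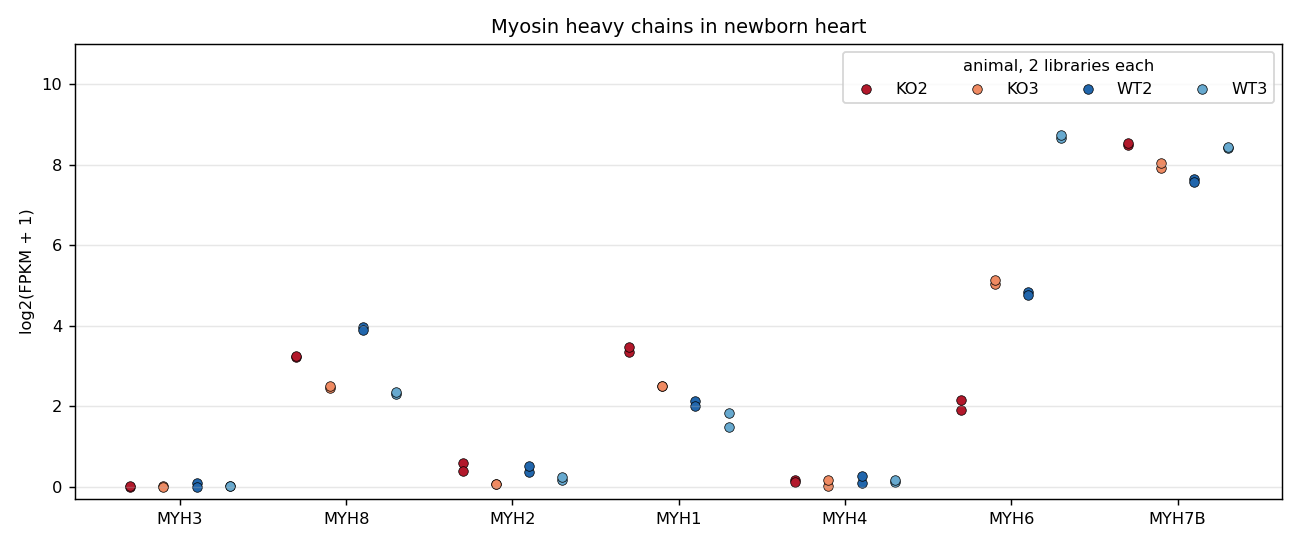
Levels of the 7 chains in newborn heart as log2(FPKM + 1) on the vertical axis, with KO2, KO3, WT2 and WT3 from left to right within each chain and 1 point per library. MYH6 is lowest in KO2 (2.74 and 3.44 FPKM) and highest in WT3 (407 and 424 FPKM), with KO3 and WT2 close together, and MYH7B overlaps between genotypes.

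The change in muscle was then tested against the change in heart within the same 4 animals. This difference passed for MYH3 (5.44, SE 0.54, adjusted p = 0.034) and for MYH1 (-5.59, SE 0.47, adjusted p = 0.023), which were 2 of only 5 genes called, or 0.0402% of those tested. For MYH1 the changes had opposite signs, but the one in heart did not pass (adjusted p = 0.51). MYH3 passed the level filter through muscle alone and was near 0 in every heart library, so its value restates the change in muscle (5.42). MYH2 and MYH4, at most 0.502 and 0.208 FPKM in heart, also passed that filter through muscle alone. The other 5 chains did not pass. MYH4 gave -3.67 (SE 1.30, adjusted p = 0.30), MYH8 gave 2.99 (SE 0.93, adjusted p = 0.28) and MYH6 gave 2.52 (SE 1.28, adjusted p = 0.41). Both calls were lost under quantile normalisation (adjusted p = 0.086 for MYH3 and 0.054 for MYH1) and without the level filter (adjusted p = 0.46 for each).

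**Figure D4:**
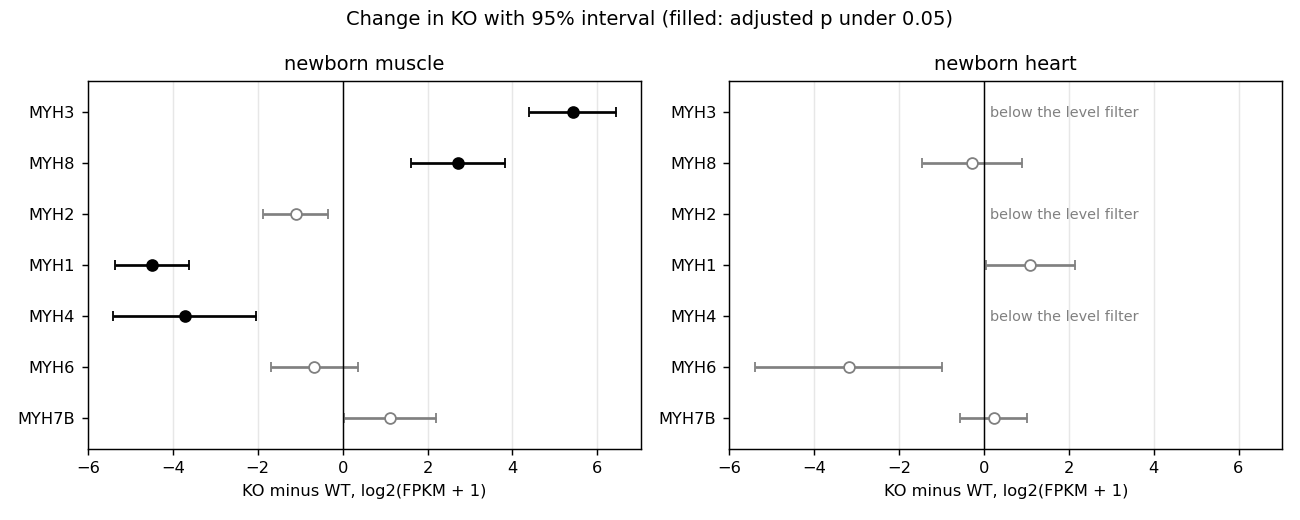
Change of each chain in KO relative to WT newborns in muscle and in heart, as a difference of log2(FPKM + 1) on the horizontal axis with its 95% interval from limma (n = 2 animals per genotype). Filled points have an adjusted p under 0.05, and these are MYH3 and MYH8 above 0 and MYH1 and MYH4 below 0 in muscle.

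The wild-type animals were also compared between the 2 striated tissues. All 7 chains differed between WT muscle and WT heart, where 16.6% of genes did. The chains were chosen as striated muscle chains, so that share is no yardstick for them. MYH3, MYH2 and MYH4 averaged 0.025, 0.261 and 0.124 FPKM in WT heart. They passed the level filter through muscle alone, so their differences restate their levels in muscle. MYH2 was higher in muscle by 9.16 on the log2 scale (adjusted p = 4.5e-06), MYH1 by 7.84 (adjusted p = 1.1e-05), MYH4 by 6.82 (adjusted p = 0.0028), MYH3 by 3.11 (adjusted p = 0.0018) and MYH8 by 3.03 (adjusted p = 0.021). The difference was -4.28 for MYH7B (adjusted p = 0.00011) and -4.24 for MYH6 (adjusted p = 0.019), both lower in muscle than in heart. Without WT3 the calls of MYH6 (-2.09, adjusted p = 0.062) and MYH8 (adjusted p = 0.089) were lost. Without the level filter 3 of the 7 passed, and MYH3 (adjusted p = 0.056), MYH4 (adjusted p = 0.079), MYH6 and MYH8 did not.

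Outside striated muscle the chains were low. In brain, thymus, liver, lung and kidney the lowest, median and highest library had MYH7B at 0.729, 1.74 and 3.68 FPKM in KO newborns, against 0.083, 0.346 and 1.28 FPKM in WT newborns (20 libraries each). Within each of these 5 tissues every KO library was above every WT library. That pattern was noticed in the values, and 0.37% of the 15133 genes at 1 FPKM or more on average over these tissues showed it. MYH7B reached that mean level through its KO libraries, and nothing is read from this share. In lung MYH7B had 3.68, 2.98, 2.47 and 2.21 FPKM in KO, against 0.375, 0.339, 0.354 and 0.329 FPKM in WT. In kidney it had 1.46, 1.58, 2.05 and 2.42 FPKM in KO, against 0.154, 0.464, 0.623 and 0.621 FPKM in WT. In brain it had 2.19, 1.90, 2.45 and 2.08 FPKM in KO, against 0.798, 0.659, 0.939 and 1.28 FPKM in WT.

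MYH7B passed the level filter in 3 of these tissues and was called in none of them. Its change was 0.93 relative to the median of all genes in brain (SE 0.31, adjusted p = 0.39). Relative to that median it was 1.66 in lung (SE 0.42, adjusted p = 0.54) and 1.02 in kidney (SE 0.35, adjusted p = 0.15). As tested, without the median taken off, the change was 0.72 in brain, 1.49 in lung and 0.97 in kidney. Limma called 0% of genes in brain (1701 genes at an unadjusted p under 0.05), 0% in lung (963 genes) and 5.78% in kidney. The same 4 animals give all 5 tissues, so these are not independent observations.

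**Figure D5:**
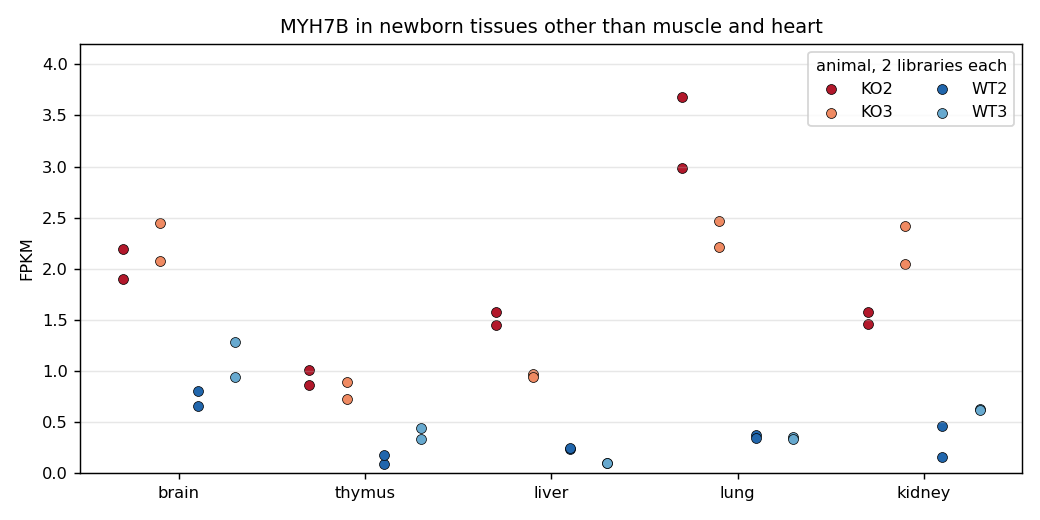
MYH7B in FPKM on the vertical axis in 5 newborn tissues, with KO2, KO3, WT2 and WT3 from left to right in each tissue and 1 point per library. All KO points lie above all WT points within each tissue, between 0.729 and 3.68 FPKM in KO and between 0.083 and 1.28 FPKM in WT.

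The other chains were found at trace levels, and several of them were also higher in KO libraries. In brain all 7 chains had every KO library above every WT library, a pattern shown by 8.47% of genes above 0 there. The 5 skeletal chains were 0.123 to 1.06 FPKM in KO brain and at most 0.222 FPKM in WT brain. Skeletal muscle markers moved with them, summing to 79.7 to 150 FPKM in KO brain and 8.06 to 12.7 FPKM in WT brain, and their part was not tested. In KO3 thymus MYH8 had 2.77 and 2.61 FPKM, MYH2 had 1.23 and 1.46 FPKM and MYH3 had 1.08 and 0.654 FPKM. None of these chains exceeded 0.232 FPKM in KO2, WT2 or WT3 thymus. Skeletal muscle markers summed to 16.8 FPKM in KO2 thymus and 128 FPKM in KO3 thymus, against 10.3 FPKM in WT2 and 6.54 FPKM in WT3. Markers of thymic myoid cells, which resemble muscle, summed to 55.4 FPKM in KO2 and 34.2 FPKM in KO3 thymus, mainly from DES. In WT2 and WT3 thymus they summed to 17.3 and 25.2 FPKM, so KO2 was highest and not KO3. The part of either list was not tested. In kidney MYH6 had 0.335, 0.517, 1.09 and 0.892 FPKM in KO, against at most 0.081 FPKM in WT. Besides MYH6 and MYH7B, 3 more chains in kidney had every KO library above every WT library, which made 5 of 7 chains, where 13.1% of genes above 0 there did. Of these 3 MYH8 was 0.269 to 0.413 FPKM in KO kidney and 0.106 to 0.162 FPKM in WT kidney, and MYH1 and MYH4 were at most 0.224 FPKM in KO kidney. In lung it was 3 of 7 chains (6.76% of genes), with MYH8 at 0.112 to 0.219 FPKM in KO and at most 0.034 FPKM in WT, and MYH1 at 0.085 to 0.202 FPKM in KO and at most 0.042 FPKM in WT. In thymus (8.4% of genes) and in liver (9.23% of genes) it was MYH7B alone. Skeletal muscle markers did not move with the chains in kidney, summing to 7.24 to 11.97 FPKM in KO and 14.9 to 21.8 FPKM in WT. In lung they overlapped, at 8.74 to 49.03 FPKM in KO and 6.34 to 11.8 FPKM in WT. Cardiomyocyte markers overlapped in kidney, at 22.5 to 38.8 FPKM in KO and 27.3 to 30.5 FPKM in WT. The part of these lists in kidney and lung was not tested. Depth is unknown, so chain levels this low are uncertain.

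In fetal brain MYH3 had 1.56 and 1.90 FPKM at month 4, against 2.69 and 0.876 FPKM at month 2, and it did not pass (0.05, SE 0.33, adjusted p = 0.95), and neither did MYH7B (-0.30, SE 0.27, adjusted p = 0.60). Of all genes 4.01% passed in fetal brain.

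The partners of the chains were examined as lists, described by counts and medians. Of all genes tested 2.32% were called between KO and WT muscle and 37.9% between the fetal months, in either direction. Each muscle head also binds light chains, and of 7 light chain genes tested in KO against WT muscle 2 fell and 5 did not pass (median -0.36, against 0.00 for all genes). Those that fell were the slow ventricular type. MYL2 had 3324 and 1224 FPKM in KO2 and KO3, against 5873 and 6118 FPKM in WT2 and WT3 (-1.57, SE 0.36, adjusted p = 0.014). MYL3 had 776 and 312 FPKM in KO2 and KO3, against 1396 and 2145 FPKM in WT2 and WT3 (-1.81, SE 0.40, adjusted p = 0.012). MYL4, the embryonic and atrial light chain, had 2.28 and 5.53 FPKM in KO2 and KO3, against 1.94 and 1.48 FPKM in WT2 and WT3, and did not pass (adjusted p = 0.56). In fetal muscle MYL4 had 3.23 and 1.96 FPKM at month 4, against 324 and 272 FPKM at month 2 (-6.56 relative to the median, SE 0.21, adjusted p = 1.2e-07). MYL5 also fell before birth, MYL2 and MYL3 rose, and 3 of the 7 light chains tested there did not pass.

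Some genes of fast fibres and some of slow fibres fell in KO muscle. Of 15 fast fibre genes 5 fell and 10 did not pass (median -1.40), among them ACTN3, the fast fibre alpha-actinin, with 138 and 245 FPKM in KO2 and KO3, against 696 and 692 FPKM in WT2 and WT3 (-1.91, SE 0.39, adjusted p = 0.0077). ATP2A1, the fast calcium pump, had 326 and 720 FPKM in KO2 and KO3, against 1599 and 1487 FPKM in WT2 and WT3 (-1.67, adjusted p = 0.014). Of 12 slow fibre genes, which share MYL2 and MYL3 with the light chain list, 6 fell and 6 did not pass (median -1.53). TNNC1, the slow troponin C, had 1793 and 369 FPKM in KO2 and KO3, against 3402 and 4408 FPKM in WT2 and WT3 (-2.25, SE 0.45, adjusted p = 0.0073). TNNT1, the slow troponin T, had 978 and 175 FPKM in KO2 and KO3, against 1533 and 2378 FPKM in WT2 and WT3 (-2.20, adjusted p = 0.014).

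Which genes were called depended on single animals. Without KO2 the fast fibre list had 0 calls with a median of -1.03 relative to all genes, and the slow fibre list 6 with a median of -2.33. Without KO3 the fast fibre list had 6 calls with a median of -1.17, and the slow fibre list 0 with a median of -0.50. The fast fibre count was 2 without WT2, and quantile normalisation left no call in any of the 7 partner lists, with medians relative to all genes of -0.97 for the fast genes and -1.37 for the slow genes. The 2 light chain calls were likewise lost without KO3, and the light chain median relative to all genes was then 0.15, with -0.91 without WT3 as the lowest. In fetal muscle 11 of 15 fast genes rose at month 4, and of 12 slow genes 9 rose and 1 fell, where 37.9% of all genes were called. The medians were 1.41 and 1.40 relative to that of all genes.

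Among 12 chaperones and turnover factors of myosin, 2 rose and 2 fell in KO muscle (median 0.65, and 0.07 relative to all genes without KO2). TRIM63 and FBXO32, the muscle ubiquitin ligases MuRF1 and atrogin-1, fell. TRIM63 had 9.44 and 73.2 FPKM in KO2 and KO3, against 375 and 547 FPKM in WT2 and WT3 (-4.03, SE 0.58, adjusted p = 0.00022). FBXO32 had 4.64 and 31.6 FPKM in KO2 and KO3, against 110 and 135 FPKM in WT2 and WT3 (-3.18, SE 0.57, adjusted p = 0.0030), a call lost without KO2 (adjusted p = 0.077). UNC45B, the chaperone that folds the myosin head, had 207 and 27.5 FPKM in KO2 and KO3, against 16.4 and 10.8 FPKM in WT2 and WT3 (2.43, SE 0.61, adjusted p = 0.031). Its partner HSP90AB1 had 844 and 251 FPKM in KO2 and KO3, against 109 and 146 FPKM in WT2 and WT3 (1.86, SE 0.46, adjusted p = 0.029). Without KO2 neither passed (adjusted p = 0.33 and 0.29), and UNC45B also missed without WT3 and HSP90AB1 without WT2. In the fetal comparison 3 of the 12 rose, a smaller share than the 37.9% of all genes called there, and 1 did without the second month 2 library. Among the 3 were FBXO32 and SMYD1, a methyltransferase of sarcomere assembly.

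Of 13 thick filament and M band partners tested in newborn muscle 1 fell, MYBPC2, the fast myosin-binding protein C. It had 100 and 174 FPKM in KO2 and KO3, against 452 and 323 FPKM in WT2 and WT3 (-1.53, SE 0.41, adjusted p = 0.045), and it was not called without KO2, WT2 or WT3. In fetal muscle 9 of the 13 rose and 2 fell, where 37.9% of all genes were called. MYBPC2 had 132 and 364 FPKM at month 4, against 2.37 and 2.86 FPKM at month 2.

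Of 33 regulators of myosin heavy chain genes tested in newborn muscle none was called by limma, and 8 had an unadjusted p under 0.05. The 4 with the smallest p were TBX15, EYA4, RCAN1 and KLF15. TBX15, a transcription factor of fast glycolytic fibres in mice, had 14.0 and 24.6 FPKM in KO2 and KO3, against 91.1 and 42.0 FPKM in WT2 and WT3 (-1.68, adjusted p = 0.074). EYA4, a transcriptional coactivator in muscle, had 2.79 and 5.77 FPKM in KO2 and KO3, against 16.6 and 12.8 FPKM in WT2 and WT3 (-1.62, adjusted p = 0.093). In fetal muscle 12 of 32 rose and 3 fell, where 2753 of the 12352 genes tested rose and 1934 fell (37.9% in either direction). NFIX, which drives the fetal programme in mouse muscle, rose by 2.24 relative to the median, with 74.5 and 53.9 FPKM at month 4, against 11.05 and 11.3 FPKM at month 2 (SE 0.20, adjusted p = 4.1e-05). It was 40.1 and 57.1 FPKM in KO2 and KO3, against 69.5 and 65.1 FPKM in WT2 and WT3.

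Of 4 non-striated heavy chains none was called in newborn muscle by limma, and 1 had an unadjusted p under 0.05. MYH10, a non-muscle chain, had 8.64 and 9.40 FPKM in KO2 and KO3, against 4.19 and 3.83 FPKM in WT2 and WT3 and did not pass (adjusted p = 0.36). In fetal muscle 3 of the 4 rose (37.9% of all genes were called), and 1 did under quantile normalisation or without either month 2 library. Among the 3 was MYH11 of smooth muscle, which had 63.2 and 6.57 FPKM at month 4, against 1.97 and 1.76 FPKM at month 2.

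The genes with the most similar newborn profiles were sought over the 28 animal and tissue averages, which share animals and libraries and in which muscle stands apart from the other tissues. Likeness was measured by Pearson's r on log2(FPKM + 1), as a description. MYH3 was closest to CHRNG, the fetal gamma subunit of the muscle acetylcholine receptor (r = 0.989), followed by PRR32, LRTM1, KCNA7 and ATP1B4 (down to 0.943). MYH2 was closest to ATP2A1 (0.995), followed by CA3, AMPD1, PRKAG3 and SYPL2 (0.992). MYH1 was closest to CASQ1, the fast calsequestrin (0.969), and MYH4 to IP6K3 (0.948). MYH8 was closest to KLHL41, a thin filament stabiliser (0.973). MYH7B was closest to CASQ2, the cardiac and slow calsequestrin (0.959), followed by TECRL, ACTC1, MYOZ2 and POPDC2 (0.937). MYH6 had the loosest matches, with ASB11 first at 0.885.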

How the data were processed

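Bulk RNA-seq of newborn KO and WT tissues and of fetal wild-type tissues was analysed. The authors deposited FPKM per gene in 2 tables, newborn and fetal. Per the submitters' processing notes CASAVA, HISAT 0.1.6 and Cufflinks 2.0.2 were used (genome build, annotation and strandedness: not given in the sources used here). Low values did not fall on whole-number ratios (7.27% to 56.6% of low genes within 0.01 on the log2 scale of a ratio of whole numbers up to 4), so no reads could be recovered.

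From these, log2(FPKM + 1) was computed, with genes at a mean of 1 FPKM or more over the libraries compared. Limma 3.58.1 in R 4.3.3 (moderated fit with trend, Benjamini-Hochberg over all genes) was tested on simulated data first. Each newborn is the mean of its 2 libraries (n = 2 KO and 2 WT animals). Muscle and heart were fitted together with animal as a block, and WT muscle minus heart comes from that fit. The newborn and fetal tables were normalised separately and no test crosses them. Comparisons within newborn tissue share animals. An exact permutation test of 2 against 2 cannot go below p = 0.33. Of 11294 LOC identifiers 788 had a symbol in RefSeq.

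Named genes were all chains in every tissue, SIRT6, up to 4 genes with the smallest p per pathway list in the muscle comparisons, and the 5 most similar profiles per chain. MYH13, LOC102118628, HSPB1 and the atrial genes were named after their values were seen. Members and lists were chosen with earlier results of these data known. Replicate numbers did not pair the samples. Alternatives were another pseudocount of 0.1, no filter or one at 5 FPKM, quantile normalisation, libraries as replicates or as correlated units, 1 fit of all tissues, the replicate block, and leaving out each animal or fetal library.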

Additional observations from a re-analysis of the deposited data

Results flagged for a closer look

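The KO change in muscle differed from the KO change in heart for 2 chains, by a test of the difference itself with limma. For MYH3 the difference was 5.44 on the log2 scale (SE 0.54, adjusted p = 0.034), with MYH3 at most 0.062 FPKM in any heart library, so that this value restates its change in muscle (5.42) and says nothing of heart. For MYH1 it was -5.59 (SE 0.47, adjusted p = 0.023). Its change was -4.49 in muscle, which passed (adjusted p = 3.1e-07), and 1.09 in heart, which did not (adjusted p = 0.51). A rise of MYH1 in KO heart is thus not shown. Both differences lost their calls under quantile normalisation and without the level filter. Dixon's test picked out no single library in the 27 sets of 4 libraries of a chain at 1 FPKM or more. Each set holds 2 animals with 2 libraries each, so an animal that stands apart forms a pair that this test cannot pick out. Shares, with 2 animals per group, were not eligible.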

How the results depend on the processing

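Of the values of single chains under the alternatives, 357 kept their direction and side of the threshold, 25 lost a call, 20 gained one and 8 reversed. All 8 reversals concern values that did not pass. MYH7B in KO against WT heart was -0.17 under quantile normalisation, -0.03 without KO2, and -0.18 to 0.64 over all animals left out. MYH8 there was 0.10 without KO3, and -1.08 to 0.53 over all animals left out. MYH3 in fetal brain was -0.014 under quantile normalisation and as low as -0.44 with a library left out, and -0.04 without the second month 4 library.

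The count of chains called between KO and WT muscle was 4, and it was 0 without the level filter and 2 under quantile normalisation. In heart it was 0, and 1 with libraries as replicates, 1 under the replicate block and between 0 and 1 with an animal left out. In brain, lung and kidney it was 1 with libraries as replicates, MYH7B, which passed the filter there through its KO libraries. The muscle minus heart change was called for 2 chains, for 0 without the filter and under quantile normalisation, for 7 with libraries as replicates and for 6 with the animal as a correlated unit. WT muscle and heart differed in 7 chains and in 3 without the filter. In fetal brain the count was between 0 and 1 with a library left out. Without the filter 22557 genes were tested in muscle in place of 12087.

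Same-numbered samples share only a number (r of 0.03 between the deviations of KO2 and WT2 in muscle and 0.08 between fetal muscle libraries). The replicate block left 4 chains called in muscle and 6 in fetal muscle. In heart it called MYH6, at an unchanged -3.19. In fetal brain, where r was -0.23, a crossed pairing chosen after seeing the data called 1101 genes and no chain, against 526 genes without it.

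Over all genes the count of calls ran from 0 to 2768 for KO against WT muscle, 0 to 1539 for heart, 0 to 4168 for brain, 0 to 2170 for lung, 0 to 5119 for kidney, 0 to 4912 for the muscle minus heart change, 549 to 7032 for WT muscle against heart, 1905 to 6756 for fetal muscle and 0 to 1377 for fetal brain. Quantile normalisation turned 2753 higher and 1934 lower genes in fetal muscle into 2092 and 2374, and 142 higher and 664 lower in kidney into 247 and 538. The highest adjusted p over the alternatives was 0.40 for MYH3 and MYH1, 0.46 for MYH8 and 0.54 for MYH4 in newborn muscle, 0.15 for MYH6 and for MYH8 between WT muscle and heart, and 0.096 for MYH3, 0.064 for MYH8 and 0.12 for MYH7B in fetal muscle. Fits without 1 animal leave a lone sample that is assumed to vary like the others. With 2 animals per genotype and unknown depth, chains near 0 FPKM cannot be ordered.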
